A study of Mus musculus with 6 samples.

Results

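The interferon-stimulated genes described here are 34 genes picked by name from the known response to interferon: transcription factors, sensors of viral nucleic acid, antiviral effectors, enzymes of the ISG15, ubiquitin and ADP-ribose systems, and guanylate-binding proteins with the peptide transporter Tap1. Of the 34, 32 were measured by a probe set that the platform annotation gives to a gene of that symbol alone, among 18193 genes measured in all. The probe set for Isg15, the ubiquitin-like modifier, also carries the symbol of another gene and was left out by that rule. Ifi44 was not analysed here. The list was drawn up with earlier results of these data known, so its shares beside those of all genes are descriptive.

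Expression was measured on 6 Affymetrix arrays of uterine horn RNA from ovariectomized female mice, 8 weeks old and of mixed background. All carried the GATA2 f/f genotype, in which f by convention denotes a floxed allele. No recombinase is named for either group, so both stand for the floxed strain as it is. The Oil group, 3 arrays numbered 1 to 3, had received oil, the usual carrier of steroid hormones. The P4 group, also 3 arrays numbered 1 to 3, had received P4, the standard abbreviation of progesterone, with its dose and duration not given in the sources used here. Whether each array had an animal of its own is not told by the labels, so the p-values below weigh only the spread among these 6 samples, part of which may be technical. In RNA from whole tissue, fewer cells of a type and less RNA per cell cannot be told apart.

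Interferons are secreted proteins that cells release on sensing viral or misplaced nucleic acid. Type I interferons act through the receptor chains Ifnar1 and Ifnar2 and the kinases Jak1 and Tyk2, which activate a complex that holds Stat2 and Irf9; this complex binds the interferon-stimulated response element (ISRE) in the promoters of its targets. Interferon gamma acts through another promoter element, the gamma-activated site (GAS). In the uterus, interferon-stimulated genes are known to be induced in the endometrium during early pregnancy in several mammals.

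The promoters of several members carry the letters that the response is known for. Windows from 250 bases before to 50 bases after the transcription start were held for 23 of the 32 measured members in a RefSeq table of build GRCm38.p6. The core of the ISRE was searched as GAAA, any 2 bases and GAAA, or on the other strand TTTC, any 2 bases and TTTC. The GAS core was searched as TTCNNNGAA, which reads the same on both strands. The ISRE core was present in 11 of the 23 members (47.8%), against 523 of 14368 genes tested with a window (3.64%) and 35 of 105 other interferon pathway genes (33.3%). Of all 32851 windows of this length, 3.44% held it. The GAS core was present in 5 of the 23 members (21.7%) and in 24 of the 105 other pathway genes (22.9%). Among the 14368 genes 1231 held it (8.57%), as did 8.30% of all windows. Xaf1, Ifit2 and Oasl2, next in size of difference after Ifit3 and Gbp3, had no ISRE core in their windows. Stretches are shown for members with large differences, such as Ifit3 and Gbp3, and small ones, such as Oas3, Bst2 and Stat2. They follow in the direction of each gene with the ISRE core in capitals.
Ifit1, chr19:34640775-34640823, plus strand: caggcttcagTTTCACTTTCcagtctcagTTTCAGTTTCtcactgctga
Ifit3, chr19:34583363-34583426, plus strand: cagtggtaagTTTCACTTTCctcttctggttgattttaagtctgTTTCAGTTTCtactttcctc
Gbp2, chr3:142620594-142620623, plus strand: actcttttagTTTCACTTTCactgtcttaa
Gbp3, chr3:142559989-142560024, plus strand: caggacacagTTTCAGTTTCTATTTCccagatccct
Rsad2, chr12:26456553-26456582, minus strand: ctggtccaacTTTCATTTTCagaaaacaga
Oas3, chr5:120777715-120777744, minus strand: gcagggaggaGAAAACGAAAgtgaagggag
Bst2, chr8:71537577-71537612, minus strand: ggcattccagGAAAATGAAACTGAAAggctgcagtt
Stat2, chr10:128270266-128270295, plus strand: cgcaccctggTTTCAGTTTCctttccctag

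Ifit1 and Ifit3, members of a gene family on chromosome 19, each held 2 separate copies of the core, and in Gbp3 and Bst2 2 copies overlapped. The first base of the core lay between 222 bases (Stat2) and 39 bases (the nearer copy of Gbp3) before the start in these 8 genes. In Ddx58, Eif2ak2 and Ifih1 it lay 2, 18 and 32 bases after the start. Irf1, which had no ISRE core in its windows, held a GAS core, shown in capitals because Irf1 is a well-known target of interferon gamma.
Irf1, chr11:53769914-53769942, plus strand: acagcctgatTTCCCCGAAatgatgaggc

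To show where the cores lie, the 250 bases before the start of Ifit3 and of Gbp3, the members with the largest mean differences between the groups, are given whole, again with the cores in capitals.
Ifit3, chr19:34583279-34583528, plus strand: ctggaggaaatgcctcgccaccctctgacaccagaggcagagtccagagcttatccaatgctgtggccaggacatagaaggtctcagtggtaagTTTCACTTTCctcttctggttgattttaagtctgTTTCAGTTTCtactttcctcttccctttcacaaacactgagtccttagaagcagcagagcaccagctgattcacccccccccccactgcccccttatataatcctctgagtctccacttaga
Gbp3, chr3:142559794-142560043, plus strand: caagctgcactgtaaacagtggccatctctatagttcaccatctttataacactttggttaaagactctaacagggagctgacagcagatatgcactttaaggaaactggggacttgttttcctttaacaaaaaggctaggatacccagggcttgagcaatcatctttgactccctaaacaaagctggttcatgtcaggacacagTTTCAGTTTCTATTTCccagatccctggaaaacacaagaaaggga

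These matches describe letters in the reference sequence and not bound sites. The core was about as frequent among members that passed the paired test described next (6 of 13 with a window) as among those that did not (5 of 10).

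The arrays numbered 3 stood apart for these genes in both groups. Number 3 gave the highest intensity of both groups for 29 members (90.6%), against 23.2% of all genes, and it was highest with number 1 lowest in both groups for 21 members (65.6%), against 7.44% of all genes. On the scale of log2(intensity + 16), the median deviation of the members from each gene's mean was -0.18, 0.15 and 0.50 on Oil arrays 1, 2 and 3 and -0.32, -0.20 and 0.15 on the P4 arrays. Between Oil arrays 3 and 1 the median difference of the members was 0.66, and between P4 arrays 3 and 1 it was 0.45, both larger than the median difference between treatments. In 27 members the difference between Oil arrays 3 and 1 exceeded the size of the P4 difference. Results are therefore also given without number 3.

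**Figure D1:**
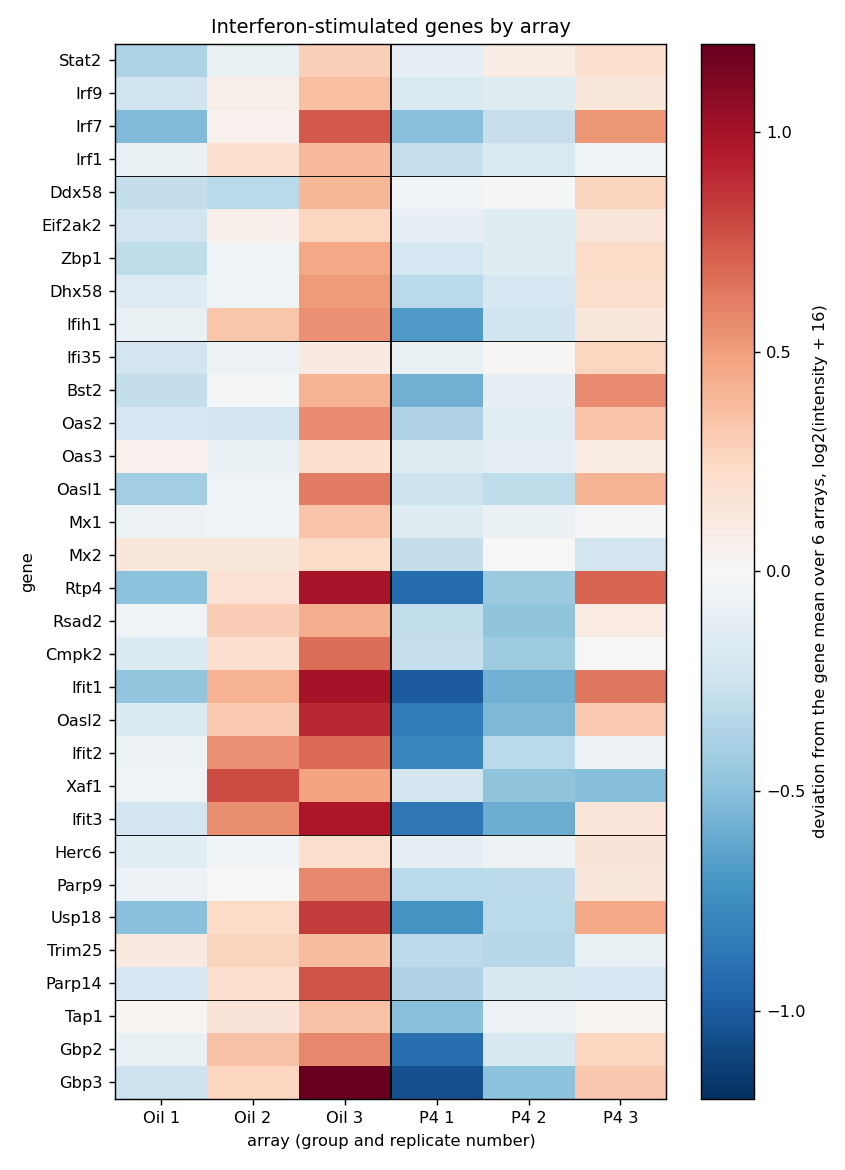
Deviation of each member (rows, grouped by role) from its own mean over the 6 arrays (columns), on the log2(intensity + 16) scale, with red above and blue below the mean. The Oil 3 column lies above the mean for all genes shown, the P4 1 column has the lowest median (-0.32), and number 3 is the highest array of both groups in 29 of 32 genes.

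Levels of most members were lower on the P4 arrays. As deposited, values are linear intensities. Differences are P4 minus Oil on the scale of log2(intensity + 16), which understates changes of dim genes, and are given with their standard error (SE). A value after ± is the SE of the unpaired fit, also where the p-value beside it is that of the block. An SE of the blocked fit is named as such. Values of single arrays stand in the order of replicate numbers 1, 2 and 3. Of the 32 members, 29 had a difference below 0, against 52.3% of all genes, and 21 were lower on the P4 array within each of the 3 replicate numbers, against 28.2% of all genes. Ifi35 was higher in each of the 3, as were 23.8% of all genes. The median difference of the members was -0.34 (range -0.87 to 0.14; -0.28 without number 3), and that of all genes was -0.01. Within replicate numbers 1, 2 and 3 the members' medians were -0.20, -0.33 and -0.33, and those of all genes -0.02, -0.02 and -0.01.

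Few members passed the test that treats the 6 arrays as independent. By limma (p-values adjusted by Benjamini-Hochberg across the 18193 genes, called when under 0.05), 2 members were lower after P4 (Trim25 and Xaf1; 6.25%) and 0 were higher, where 6.94% of all genes were lower and 6.08% were higher. At an unadjusted p under 0.05, limma gave 9 members lower (28.1%) and 0 higher, where the shares of all genes were 14.7% and 11.9%. With the replicate number as a block, which compares each P4 array with the Oil array of its own number, 18 members were lower (56.2%) and 0 were higher; 11.6% of all genes were lower and 9.29% higher in that fit. The block is given because arrays of the same number deviated from their group means together, with correlations of 0.53, 0.13 and 0.64. This rests on the data, since the labels share only a number, and Oil array 2 correlated more closely with P4 array 1 (0.29). Over the members, the replicate number took a median of 70.3% of the sum of squares and the treatment 22.0%, against 35.5% and 28.6% over all genes. With 3 numbers against 2 groups, the number can take the larger share without any effect.

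Counts without single arrays were as follows. Over all 18193 genes limma's unpaired test called 1170, 993 and 1760 without Oil array 1, 2 and 3. It called 2302, 1401 and 1688 without P4 array 1, 2 and 3, against 2368 with all 6 arrays. Without Oil array 2 or Oil array 3, 0 members passed limma's unpaired test. Without P4 array 2 neither Trim25 nor Xaf1 passed and Mx2 did (adjusted p 0.0479), and without P4 array 3 only Trim25 passed (0.0177). Without Oil array 1, 3 members passed, the added gene being Ifit2 (adjusted p 0.0386). The median difference of the members moved to -0.10 without Oil array 3 and to -0.16 without P4 array 1. It was -0.46 without Oil array 1 and -0.47 without P4 array 3. Without both arrays of number 1, 2 and 3, 2, 0 and 1 members passed the unpaired test and 16, 11 and 10 the blocked test. Over all genes the counts were 1054, 171 and 1434 unpaired and 2694, 2416 and 2513 blocked. With all arrays they were 2368 and 3801. Leaving out any 1 number kept the blocked call of 9 members: Ifih1, Ifit1, Ifit2, Ifit3, Oasl2, Rtp4, Trim25, Gbp2 and Gbp3. For Rtp4 the highest of these adjusted p-values lay at the threshold (0.050 without number 2).

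**Figure D2:**
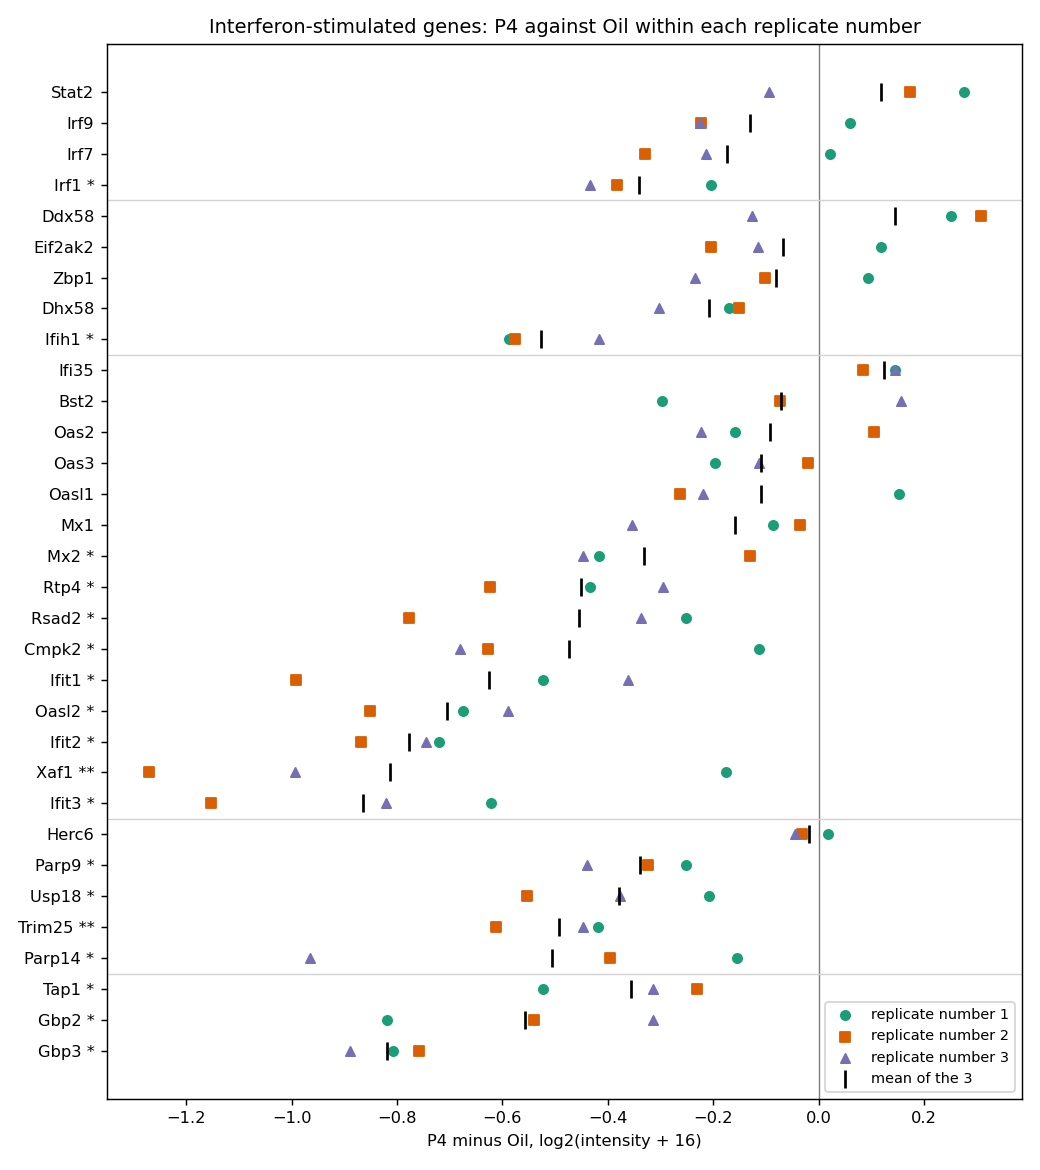
P4 minus Oil on the log2(intensity + 16) scale (x axis) for the 32 measured members (y axis, grouped by role and sorted by the mean), with a symbol for each of the 3 replicate numbers and a bar for their mean; ** marks genes passing limma at an adjusted p under 0.05 with and without the replicate block, * those passing with the block only. All 3 symbols lie below 0 for 21 genes and above 0 for Ifi35 alone.

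Among the 4 signalling and transcription members, Irf1 was lower with the block (25%, against 11.6% of all genes) and the others did not pass either test. Irf1, a transcription factor of the response to interferon gamma, had intensities of 951, 1151 and 1318 on the Oil arrays and 824, 879 and 972 on the P4 arrays. Each P4 array lay below the Oil array of its number, but P4 array 3 lay above Oil array 1, so the groups overlapped. The difference was -0.34 ± 0.13, with limma adjusted p 0.128 without and 0.0198 with the block. The blocked adjusted p was 0.0833 without number 2 and 0.10 without number 3. Stat2 and Irf9, partners in the ISRE-binding complex, differed by 0.12 ± 0.17 and -0.13 ± 0.16. Irf7, the factor that amplifies type I interferon production, differed by -0.17 ± 0.35, and its Oil arrays alone ran from 122 to 316.

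Ifih1 was the only one of the 5 nucleic acid sensors to pass a test, as lower with the block (20%, against 11.6% of all genes). Ifih1 encodes MDA5, a cytoplasmic sensor of long double-stranded RNA, and gave 380.1, 516 and 602 on the Oil arrays and 248, 341 and 447 on the P4 arrays. Every P4 array was below its Oil counterpart, and P4 array 3 was above Oil array 1. The difference was -0.53, with SE 0.23 without and 0.08 with the block, and limma adjusted p 0.186 and 0.00414. Ddx58, which encodes the related sensor RIG-I, had a mean intensity of 473 ± 146 in the Oil group and 512 ± 64.4 in the P4 group (SD, n = 3), a difference of 0.14 ± 0.19 that passed neither test (adjusted p 0.729 and 0.389). Dhx58, which encodes LGP2, the regulator of these sensors, differed by -0.21 ± 0.20. Zbp1, a sensor of Z-form nucleic acid, and Eif2ak2, which encodes the kinase PKR, differed by -0.08 ± 0.20 and -0.07 ± 0.14, and both values were above 0 (0.030 and 0.050) when arrays were scaled to their hybridisation controls.

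Of the 15 antiviral effectors measured, 9 were lower with the block (60%, against 11.6% of all genes). Xaf1 passed without it too (6.67%, against 6.94%). The Ifit genes encode proteins that bind viral RNA and block its translation. Ifit3 had the largest mean difference of all members, and its intensities were 219, 391 and 526 on the Oil arrays and 137, 167 and 291 on the P4 arrays. The 3 pairs were ordered alike, with the P4 mean at 52.3% of the Oil mean, although P4 array 3 was above Oil array 1. The difference was -0.87 ± 0.34 (limma adjusted p 0.149; 0.00230 with the block). Ifit2 measured 322, 499 and 549.9 on the Oil arrays and 189, 266 and 322 on the P4 arrays. Here the 2 lowest P4 arrays were below every Oil array and P4 array 3 was level with Oil array 1, and the difference was -0.78 ± 0.23 (adjusted p 0.0688; 0.000938 with the block). For Ifit1 the arrays read 226, 434 and 656 on the Oil arrays and 152, 210.1 and 507 on the P4 arrays. Its spread within each group was wider than the difference of -0.63 ± 0.47 (adjusted p 0.478), but all 3 pairs were lower after P4 and the blocked adjusted p was 0.0119.

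Oasl2, an OAS-like protein with ubiquitin-like domains, was also highest on number 3 and lowest on number 1 in both groups. Its intensities were 654, 912 and 1389 on the Oil arrays and 404, 498 and 917 on the P4 arrays. P4 array 3 was close to Oil array 2, while within numbers the differences were -0.67, -0.85 and -0.59, for a mean of -0.71 (limma adjusted p 0.237; 0.00148 with the block). The classical oligoadenylate synthetases, which make the nucleotide messenger that activates RNase L, did not pass either test: Oas2 differed by -0.09 ± 0.25 and Oas3 by -0.11 ± 0.11, values that were 0.029 and 0.0099 under scaling to the hybridisation controls. Oasl1 differed by -0.11 ± 0.28. Whether Oasl2 differed from these 3 genes was not tested.

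Xaf1, which encodes a pro-apoptotic antagonist of XIAP, gave 507, 914 and 737 on the Oil arrays and 447, 369 and 362 on the P4 arrays. All 3 P4 arrays were below all 3 Oil arrays, and the P4 mean was 54.6% of the Oil mean. The difference was -0.81 ± 0.20 (limma adjusted p 0.0344; 0.0206 with the block). It came mainly from numbers 2 and 3 (-1.27 and -0.99, against -0.18 in number 1). The call was lost without Oil array 2 (adjusted p 0.103), Oil array 3 (0.0842), P4 array 2 (0.111) or P4 array 3 (0.0966). With the block it was lost without number 2 (0.0795) or number 3 (0.0727). Another probe set of Xaf1 ran from 105 to 643 with no order between the groups (-0.28 ± 0.70), and the call did not hold for the mean of both probe sets (adjusted p 0.330; 0.146 with the block).

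Rsad2 encodes viperin, an enzyme that makes a chain terminator of viral RNA synthesis, and Cmpk2 is its neighbour gene, encoding a mitochondrial nucleotide kinase. Rsad2 had intensities of 519.6, 659 and 729.7 on the Oil arrays and 434, 378 and 575 on the P4 arrays, and Cmpk2 had 161, 213 and 301 on the Oil arrays and 148, 132 and 182 on the P4 arrays. In both genes each P4 array was below the Oil array of its number, with overlap between the groups through P4 array 3. Rsad2 differed by -0.45 ± 0.17 (limma adjusted p 0.138; 0.0261 with the block), and the blocked call was lost without number 2 (0.0958). Cmpk2 differed by -0.47 ± 0.21 (adjusted p 0.196; 0.0326 with the block), lost without number 2 (0.131) or number 3 (0.144). The other probe set of Cmpk2 differed by 0.0078, whereas the other 2 of Rsad2 gave -0.44 and -0.28; for the mean of its 3 probe sets the blocked adjusted p of Rsad2 was 0.0615.

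Rtp4, a chaperone of receptor transport that also restricts some viruses, varied widely between arrays of a group. It measured 501, 804 and 1427 on the Oil arrays and 367, 516 and 1161 on the P4 arrays. P4 array 3 exceeded Oil arrays 1 and 2, and the difference of -0.45 had an SE of 0.47 without the block and 0.09 with it (limma adjusted p 0.630 and 0.0102). Another probe set of Rtp4 gave a difference of -0.0028, and the blocked call did not hold for the mean of both (adjusted p 0.0729). The Mx genes encode dynamin-like GTPases that trap viral components. Mx2 gave 155, 156 and 166 on the Oil arrays and 112, 141 and 117 on the P4 arrays. The groups did not overlap, and the difference was -0.33 ± 0.10 (adjusted p 0.0737; 0.0478 with the block, lost at 0.187 without number 1 and 0.202 without number 3). Non-overlap of this kind, all P4 arrays below all Oil arrays, was found for Xaf1, Trim25 and Mx2, 9.38% of members, against 17.5% of all genes. Mx1, at 76.6 ± 15.2 in the Oil group and 66.3 ± 3.93 in the P4 group (SD, n = 3), differed by -0.16 ± 0.13.

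Bst2 and Ifi35 passed neither test. Bst2, which encodes tetherin, the protein that holds budding virus at the cell surface, measured 565, 678 and 926 on the Oil arrays and 458, 644 and 1034 on the P4 arrays. The highest array was P4 array 3 and the lowest P4 array 1, so the P4 arrays enclosed the Oil arrays; the difference was -0.07 ± 0.29, and 0.055 under scaling to the hybridisation controls. Ifi35, an interferon-induced leucine zipper protein, gave 1282, 1425 and 1620.4 on the Oil arrays and 1418, 1511 and 1794 on the P4 arrays. It was higher on the P4 array in all 3 numbers, but the difference of 0.12 ± 0.12 did not pass (limma adjusted p 0.591; 0.247 with the block).

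**Figure D3:**
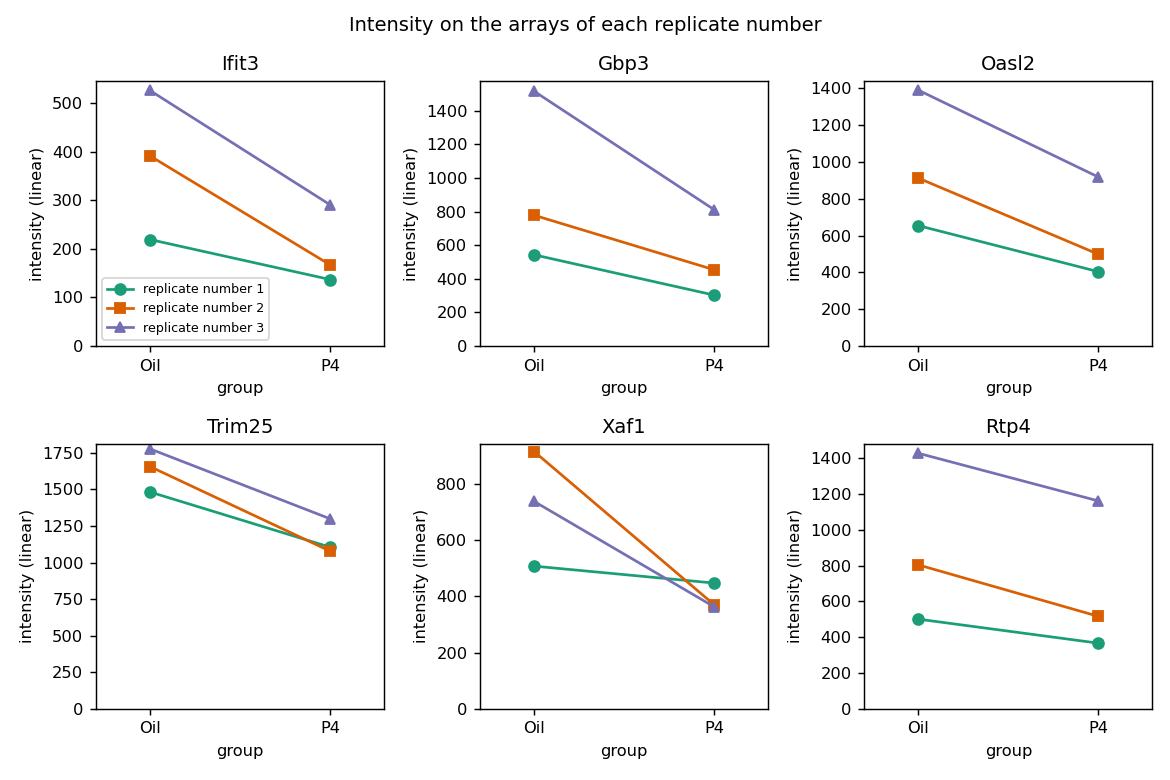
Linear intensity (y axis) on the Oil and P4 arrays (x axis) for 6 members, with a line joining the arrays of each replicate number. Each line falls from Oil to P4, and in Ifit3, Gbp3, Oasl2 and Rtp4 the array of number 3 is the highest and that of number 1 the lowest in both groups.

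Of the 5 members that act in the ISG15, ubiquitin and ADP-ribose systems, Trim25 passed both tests and 3 more passed with the block. The shares lower were 20% without the block (6.94% of all genes) and 80% with it (11.6%). Trim25 encodes a ubiquitin ligase that activates RIG-I. It gave 1482, 1656 and 1777 on the Oil arrays and 1105, 1078 and 1299 on the P4 arrays. The groups did not overlap, with the P4 mean at 70.8% of the Oil mean, and the difference was -0.49 ± 0.10 (limma adjusted p 0.0190; 0.00400 with the block). Another probe set of Trim25 differed by -0.44 ± 0.10 in a fit over all probe sets (adjusted p 0.0256), and the third by 0.07 ± 0.16. The call was lost without Oil array 2 (adjusted p 0.0809), Oil array 3 (0.0576) or P4 array 2 (0.0703), and for the mean of the 3 probe sets (0.124).

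Usp18, the protease that removes ISG15 and restrains the type I receptor, had intensities of 169, 290.0 and 452 on the Oil arrays and 144, 192 and 344 on the P4 arrays. Number 3 was highest in both groups, the groups overlapped widely, and the difference was -0.38 ± 0.38 (limma adjusted p 0.613; 0.0260 with the block; 0.121 without number 2 and 0.0913 without number 3). Parp9 and Parp14 encode macrodomain proteins of the ADP-ribosyl transferase family. Parp9 measured 499.97, 530.0 and 794 on the Oil arrays and 417, 420.2 and 581 on the P4 arrays, and Parp14 measured 520.1, 695 and 1024 on the Oil arrays and 466, 524 and 517 on the P4 arrays. In both, Oil array 3 stood above the 5 other arrays. Parp9 differed by -0.34 ± 0.20 (adjusted p 0.336; 0.0204 with the block; 0.0691 without number 2 and 0.114 without number 3). Parp14 differed by -0.51 ± 0.21 (adjusted p 0.177; 0.0452 with the block; 0.0876 without number 2 and 0.150 without number 3), and -0.97 of it came within number 3, against -0.16 and -0.40 within numbers 1 and 2. Herc6, the mouse ligase of ISG15, differed by -0.02 ± 0.12, and by 0.021 after median centring and 0.092 under scaling to the hybridisation controls. The other probe sets of Herc6 differed by -0.18, -0.39 ± 0.20 and -0.25. Only that of -0.39 passed with the block over all probe sets (limma adjusted p 0.0190). For the mean of its probe sets Herc6 differed by -0.21 (blocked adjusted p 0.0922).

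All 3 members of the last role were lower with the block, against 11.6% of all genes, and 0 without it. The guanylate-binding proteins are GTPases that attack pathogen membranes. Gbp3 gave 543, 779 and 1517 on the Oil arrays and 303, 454 and 811 on the P4 arrays. Arrays of a group differed by more than the treatments did, yet the differences within numbers lay close together (-0.81, -0.76 and -0.89). The mean difference was -0.82 with SE 0.42 without the block and 0.07 with it (limma adjusted p 0.276 and 0.000602), the smallest blocked value of any member. Gbp2, whose probe set can bind related sequences, measured 438, 601 and 703 on the Oil arrays and 241, 408 and 562 on the P4 arrays. P4 array 3 was above Oil array 1, all pairs were lower after P4, and the difference was -0.56 ± 0.29 (adjusted p 0.277; 0.00985 with the block); a more specific probe set of Gbp2 gave -0.73 ± 0.31. Tap1, which carries peptides to MHC class I, measured 324, 357 and 410.2 on the Oil arrays and 220.4, 302 and 327 on the P4 arrays. Only P4 array 3 reached into the range of the Oil arrays, and the difference was -0.36 ± 0.15 (adjusted p 0.188; 0.0266 with the block, lost at 0.129 without number 1 and 0.0778 without number 3). The 3 other probe sets of Tap1, all dimmer, differed by 0.13, -0.19 and 0.21. For the mean of the 4 the difference was -0.05 and the blocked call was lost (adjusted p 0.718).

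As with the members, leukocyte markers differed between the numbered arrays. The summed intensity of 6 pan-leukocyte markers was 1564, 2177 and 4512 on Oil arrays 1, 2 and 3 and 1131, 3593 and 4523 on the P4 arrays, and that of 11 macrophage and monocyte markers was 4039, 5614 and 10035 against 4057, 8691 and 11271. The 7 granulocyte markers summed to 575, 551 and 6386 on the Oil arrays and to 568, 6628 and 9703 on the P4 arrays, chiefly through S100a8 and S100a9. No leukocyte or granulocyte marker passed either test between the treatments, and of the macrophage markers only Cd14 passed, as higher with the block. Within number 2 the 6 leukocyte markers were higher on the P4 array (median 0.65), where the members were lower (-0.33); within numbers 1 and 3 the markers' medians were -0.38 and -0.01. None of these markers was listed at 0 on any array. The 7 dendritic cell, 11 T and NK cell and 4 B cell markers had 0 calls in both tests, and their summed intensities ran from 657 to 782, 984 to 1260 and 2930 to 4704 in the Oil group and from 632 to 808, 909 to 1182 and 2181 to 5008 in the P4 group. The part of leukocytes in the members' levels was not tested.

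**Figure D4:**
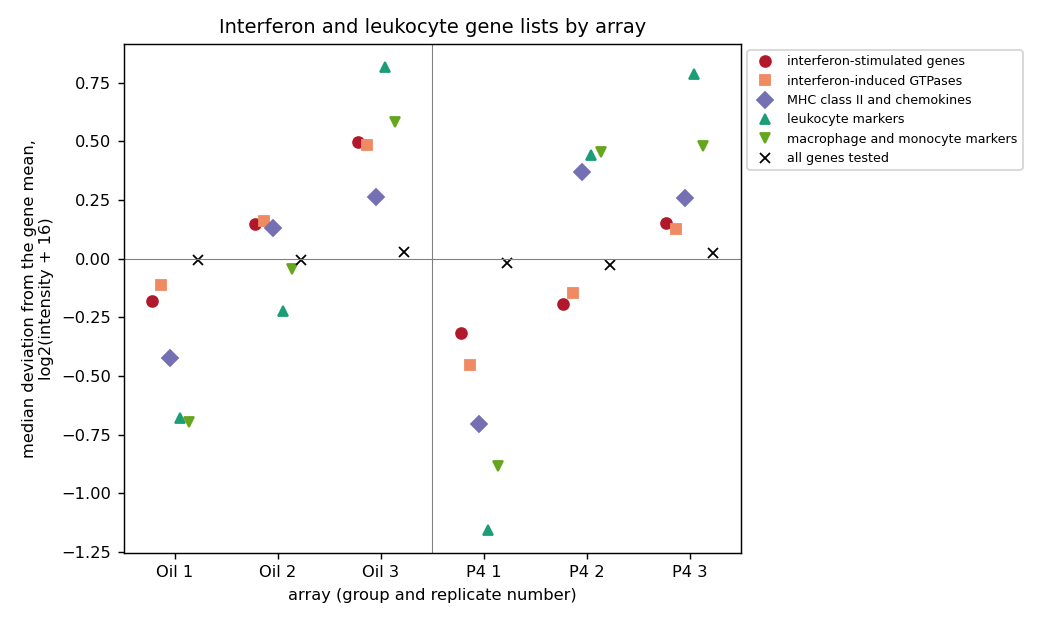
Median deviation from each gene's mean over the 6 arrays (y axis, log2(intensity + 16)) for 5 gene lists and for all genes, by array (x axis). The members and the interferon-induced GTPases are lower on P4 array 2 than on Oil array 2, where the leukocyte, macrophage and MHC class II lists are higher.

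Markers of the uterine wall gave signal on all arrays: intensities ran from 15323 to 16901 for the smooth muscle actin Acta2, from 12258 to 16906 for the stromal Dcn and from 1779 to 3946 for the epithelial Krt8. The stromal transcription factors Hoxa11 (0.89 ± 0.08; limma adjusted p 0.000860), Hoxa10 (0.81 ± 0.10; 0.00262) and Hand2 (0.50 ± 0.10; 0.0165) were higher, the endothelial receptor Tek was lower (-0.38 ± 0.10; 0.0404), and 0 of 8 epithelial and 0 of 5 smooth muscle markers passed. The call of Hand2 was lost without Oil array 2 (adjusted p 0.0707) or Oil array 3 (0.0514), and that of Tek without Oil array 2 (0.132), Oil array 3 (0.108), P4 array 1 (0.0845), P4 array 2 (0.105) or P4 array 3 (0.0651). All 6 endothelial markers had a difference below 0 (median -0.24), against 52.3% of all genes. Of the 6, 5 were lower within each of the 3 numbers, against 28.2% of all genes. With the block Tek (0.0107) and the adhesion molecule Pecam1 (-0.34 ± 0.14; 0.0229) were lower, with adjusted p-values of up to 0.0610 and 0.110 when a number was left out. These 2 were 33.3% of the 6, against 11.6% of all genes lower with the block. The summed endothelial intensity was 4752 to 5277 in the Oil group and 4273 to 4605 in the P4 group. Of the 8 stromal markers 5 were higher with the block (62.5%, against 9.29% of all genes). These were the 3 transcription factors and the collagen genes Col1a1 (0.57 ± 0.20, limma adjusted p 0.0247) and Col3a1 (0.36 ± 0.18, 0.0309, up to 0.0632 without a number). Vim and Dcn had P4 means at 89.5% and 88.2% of the Oil mean, and Pdgfra at 104.7%. Within each of the 3 numbers 2 of the 8 stromal markers were lower, against 28.2% of all genes. With the block 3 of 8 epithelial markers, Krt18, Krt19 and Epcam, were lower (37.5%, against 11.6% of all genes). Their limma adjusted p-values reached 0.0511, 0.0710 and 0.146 when a number was left out. Of the other epithelial markers, Cldn4, Krt7 and Foxa2 had P4 means at 125.1%, 112.9% and 101.5% of the Oil mean, and Cdh1 at 96.7%. The summed epithelial intensity was 14008 to 16069 in the Oil group and 8808 to 14566 in the P4 group. The part of these cell types in the members' differences was not tested. Array medians lay between 117 and 123, and the hybridisation controls differed by -0.13 log2 between the groups (P4 minus Oil). Scaling to these controls moved the median of all genes by 0.11 and the share of called genes that were higher from 46.7% to 74.5%. It left the median of the members at -0.21, 2 called members without and 10 with the block, Ifih1, Ifit1, Ifit2, Ifit3, Oasl2, Xaf1, Rtp4, Trim25, Gbp2 and Gbp3.

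Beyond the members, 131 of 164 listed interferon pathway genes were measured. Limma gave 8 lower (6.11%) and 5 higher (3.82%), and with the block 31 lower (23.7%) and 11 higher (8.40%), beside the shares of all genes given above. Their median difference was -0.12. The 9 measured interferon genes had intensities of at most 76.8 on any array, and 0 passed limma either with or without the block or at an unadjusted p under 0.05 (median 0.10). Ifna9 measured 62.1, 54.0 and 58.7 on the Oil arrays and 76.6, 54.0 and 76.8 on the P4 arrays, and Ifna2 47.9, 46.3 and 47.7 on the Oil arrays and 50.2, 46.6 and 47.1 on the P4 arrays. The groups overlapped in both.

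Of 10 receptor, kinase and STAT genes 1 was lower without the block (10%, against 6.94% of all genes) and 4 with it (40%, against 11.6%). In both fits 0 were higher. Ifnlr1, the specific chain of the interferon lambda receptor, measured 171, 173 and 179.6 on the Oil arrays and 115, 116 and 139.6 on the P4 arrays. All P4 arrays were below all Oil arrays (-0.45 ± 0.10; limma adjusted p 0.0222; 0.0102 with the block), although leaving out any array but P4 array 3 raised the unpaired adjusted p to between 0.0541 and 0.0822. Il10rb, the chain it shares with the interleukin 10 receptor, was lower with the block (-0.44 ± 0.13; 0.0155), as were the kinase Jak2 (-0.46 ± 0.15; 0.0312) and the type I receptor chain Ifnar2 (-0.25 ± 0.22; 0.0459). Stat3 differed by -0.19 ± 0.19. Among 5 further interferon regulatory factors, Irf2 was lower with the block (-0.32 ± 0.10, limma adjusted p 0.0258), 20% against 11.6% of all genes. Irf3, which starts interferon production, differed by -0.17 ± 0.08.

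Some genes upstream of interferon were higher after P4, and with the block others were lower. Of 15 sensors and adaptors 3 were higher (20%, against 6.08% of all genes) and 0 lower (against 6.94%) without the block. With it 4 were higher (26.7%, against 9.29%) and 3 lower (20%, against 11.6%). Myd88, the adaptor of most Toll-like receptors, measured 654, 649 and 784 on the Oil arrays and 3104, 1906 and 2012 on the P4 arrays. All P4 arrays lay far above the Oil arrays, with a difference of 1.70 ± 0.18 (limma adjusted p 0.00169), larger in size than that of any member. Ticam1, the adaptor TRIF, rose by 0.41 ± 0.08 (adjusted p 0.0134; 0.0604 without Oil array 1 and 0.0583 without Oil array 2). Cgas, the sensor of cytoplasmic DNA, rose by 0.41 ± 0.09 (0.0191; 0.0877 without Oil array 2, 0.0559 without Oil array 3 and 0.0562 without P4 array 3). Of 11 brakes on the pathway 0 passed without the block, and the phosphatases Ptpn2 (0.33 ± 0.10; 0.0215) and Ptpn1 (0.29 ± 0.08; 0.0251) were higher with it. These 2 were 18.2% of the 11, against 9.29% of all genes higher with the block. Ptpn11, another phosphatase, and Pias1, an inhibitor of STAT proteins, differed by 0.09 ± 0.07 and -0.13 ± 0.09.

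Of 45 other interferon-induced antiviral genes measured, 35 had a difference below 0, against 52.3% of all genes. Limma gave 5 lower (11.1%, against 6.94% of all genes) and 1 higher (2.22%, against 6.08%) without the block. With the block 17 were lower (37.8%, against 11.6%) and 2 higher (4.44%, against 9.29%). The median difference of the 45 genes was -0.21. Tnfsf10, the death ligand TRAIL, measured 286, 309 and 346 on the Oil arrays and 98.8, 107 and 158 on the P4 arrays. The groups were well apart, with a difference of -1.29 ± 0.16 (limma adjusted p 0.00308). Trim34a (-0.79 ± 0.16; 0.0169, but 0.0627 without P4 array 2) and Trim12a (-0.63 ± 0.10; 0.00644), of the tripartite motif family, were lower too. Isg20, an exonuclease that degrades viral RNA, went the opposite way and measured 177, 241 and 335 on the Oil arrays and 656, 704 and 1117 on the P4 arrays. Every P4 array was above every Oil array (1.66 ± 0.26; adjusted p 0.00644).

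The 8 other interferon-induced GTPases were all below 0 on average, against 52.3% of all genes, with a median of -0.42. All 8 were also lower within each of the 3 numbers, against 28.2% of all genes. Gbp7 passed without the block (-0.51 ± 0.10; limma adjusted p 0.0164; 0.0666 without Oil array 2 and 0.0629 without P4 array 2), and 5 passed with it, Iigp1 (-0.78 ± 0.29; 0.00282), Ifi47 (-0.50 ± 0.40; 0.00509) and Gbp6 (-0.44 ± 0.23; 0.00733) among them. The shares lower, 12.5% without and 62.5% with the block, stood against 6.94% and 11.6% of all genes. Igtp differed by -0.19 ± 0.16. Among 16 genes of MHC class I and the immunoproteasome, the peptide-loading factor Tapbp was lower (-0.34 ± 0.09; 0.0476) and the chaperone Calr higher (0.43 ± 0.10; 0.0269). Each was 6.25% of the 16, near the shares of all genes (6.94% lower and 6.08% higher). Without 1 array, Tapbp reached an adjusted p of 0.0618 (Oil 1), 0.154 (Oil 2), 0.131 (Oil 3), 0.0891 (P4 1) or 0.140 (P4 2), and Calr 0.0997 (Oil 1), 0.0975 (Oil 2), 0.0840 (P4 2) or 0.0769 (P4 3). Of 12 genes of the interferon gamma response, MHC class II genes and chemokines, none passed without the block and Ifi30, a lysosomal thiol reductase, was higher with it (0.24 ± 0.13; 0.0475). That 1 gene was 8.33% of the 12, against 9.29% of all genes higher with the block. The MHC class II genes Cd74 and H2-Aa differed by -0.08 ± 0.29 and -0.12 ± 0.38, or 0.050 and 0.0079 under scaling to the hybridisation controls.

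**Figure D5:**
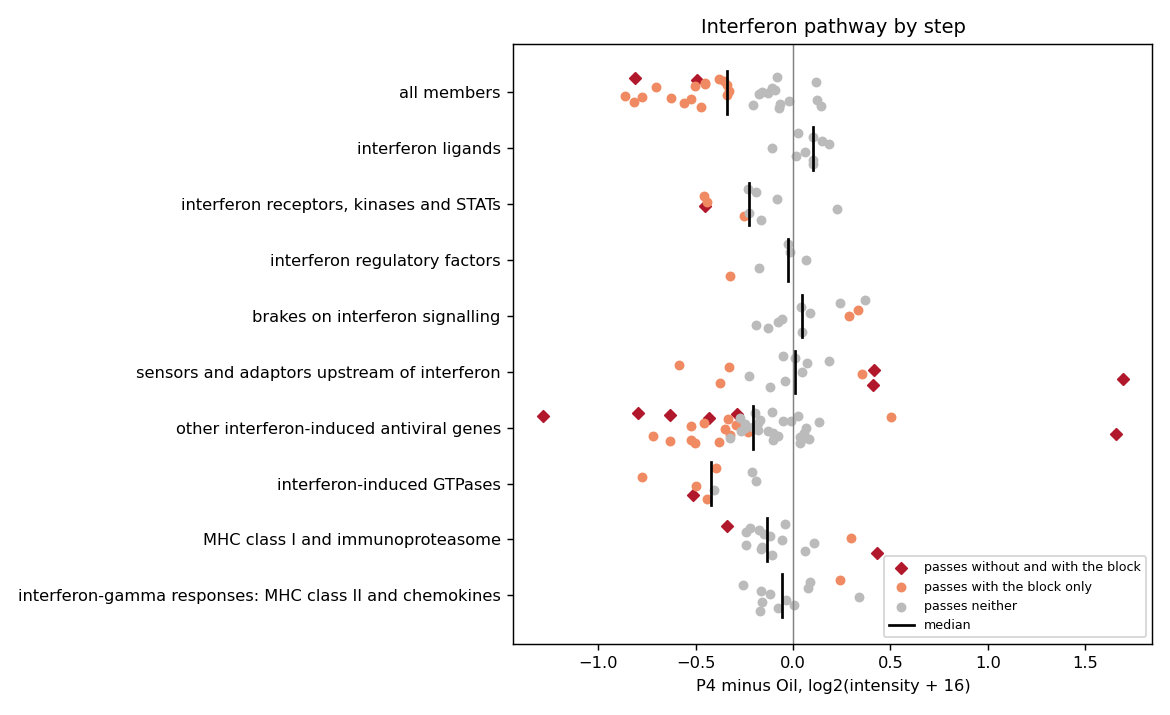
P4 minus Oil on the log2(intensity + 16) scale (x axis) for the members and 9 other lists of interferon pathway genes (y axis), with a point for each gene, a bar at the median and the colour giving which limma test it passed. The members and the interferon-induced GTPases have medians of -0.34 and -0.42, the interferon genes themselves 0.10, and Myd88 and Isg20 are the points at the far right.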

How the data were processed

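The authors deposited linear intensities, 1 per probe set and array, from total RNA labelled with biotin, per the labels; the summary method, scaling and build are not given in the sources used here. Intensities were used as log2(intensity + 16) with no further scaling. Of 45101 probe sets, 34945 carry 1 gene symbol, 932 several and 9160 none, and 64 are controls. The probe set with the highest mean stood for each gene.

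The P4 and Oil arrays were compared in limma 3.58.1 (lmFit, eBayes with trend; R 4.3.3) over 18193 genes with Benjamini-Hochberg adjustment at 0.05, and again with the replicate number as a block; the numbers count as pairing since each same-number correlation exceeded 0.1. The number of arrays limits precision, and an exact permutation test of 3 against 3 cannot go below 0.1. Figures were drawn with matplotlib 3.10.9.

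Alternatives were quantile normalization, median centring, scaling to 18 hybridisation control probe sets, pseudocounts of 1 and 50 and averaging the probe sets per gene. Others were dropping probe sets with the suffix _x_at, _s_at or _a_at, leaving out the dimmest 30% or 50% of genes and eBayes without trend. The block was a further alternative, as was leaving out each array or number. The members and lists were chosen with earlier results of these data known. Every member is named, with all arrays where it passed either fit or was bright, as are up to 4 called genes of each other list, then up to 3 passing with the block, then 2 of high intensity, and up to 3 called genes of each marker list; markers passing only with the block were named after their values were seen. ISRE and GAS cores were matched in RefSeq windows of 300 bases.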

Additional observations from a re-analysis of the deposited data

How the results depend on the processing

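The number of members called (2) was 0 with averaged probe sets of a gene and 18 with the replicate block. It was 1 without probe sets that carry the suffix _x_at, _s_at or _a_at (24 members left, Trim25 not among them). It ran from 0 to 3 without 1 array, was 2, 0 and 1 without number 1, 2 and 3, and with the block 16, 11 and 10. In alternatives chosen after seeing the data, the blocked count was 10 with hybridisation-control scaling and 16 with quantile normalization. It was 14 with averaged probe sets and 14 without probe sets of these suffixes. The median difference of the members (-0.34) was -0.21 with hybridisation-control scaling and -0.23 with averaged probe sets, with or without the block, -0.45 without the dimmest 50% of genes, and from -0.47 to -0.10 without 1 array. Of the other pathway genes 13 were called, 8 without probe sets of these suffixes and 42 with the block. Counts were 30, 39, 38 and 31 with the block and the same 4 added alternatives. Without 1 array 5 to 13 were called, without number 1 or 2 5 or 0, and with the block 24, 27 and 25 without number 1, 2 and 3. Over all genes 2368 were called, 3801 with the block, 3824 and 3790 with the block and hybridisation-control scaling or quantile normalization, 993 to 2302 without 1 array, and 1054, 171 and 1434 without number 1, 2 and 3. Fewer arrays entered the last of these; the other causes were not tested.

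Of the genes named, those with a change of sign passed neither test. Under hybridisation-control scaling, with or without the block, Zbp1 (0.030), Eif2ak2 (0.050), Oas2 (0.029), Oas3 (0.0099), Bst2 (0.055), Herc6 (0.092), Cd74 (0.050) and H2-Aa (0.0079) turned above 0, as did Herc6 under median centring (0.021). Without number 1, with or without the block, Bst2 (0.042), Cd74 (0.050) and H2-Aa (0.036) were above 0 and Ifna2 (-0.0030) below, and without number 2 Eif2ak2 was 0.0015. Without 1 array, differences that changed sign ran from -0.038 to 0.29 for Stat2, -0.48 to 0.15 for Irf7, -0.28 to 0.016 for Irf9, -0.25 to 0.13 for Zbp1, -0.19 to 0.045 for Eif2ak2, -0.29 to 0.17 for Oas2, -0.35 to 0.17 for Oasl1, -0.37 to 0.20 for Bst2, -0.10 to 0.076 for Herc6, -0.28 to 0.25 for Cd74, -0.40 to 0.32 for H2-Aa, -0.0099 to 0.030 for Ifna2 and -0.34 to 0.035 for Stat3.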
